A study of Mus musculus with 8 samples.

Results

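S100a8 and S100a9 encode the subunits of calprotectin. They were examined together with the other S100a genes of the array in mouse keratinocytes that carried the v-rasHa oncogene and either lacked or retained Nfkbiz. Members were the genes whose symbol starts with S100a followed by a digit and whose probe set is assigned to a single symbol. There were 10 such genes among 9294 genes tested: S100a8, S100a9 and 8 others, namely S100a3, S100a4, S100a5, S100a6, S100a7l2, S100a10, S100a13 and S100a14. The knockout group held 4 arrays of Nfkbiz KO keratinocytes, and the wild-type group held 4 arrays of wildtype keratinocytes. Both were of the C57BL/6 strain, were grown in regular medium and had been transduced with v-rasHa, an activated viral form of Hras, for 3 days. No culture without the oncogene was analysed here, and the labels give neither the allele of the knockout nor the number of animals behind each culture. The 4 samples of each genotype are biological replicates per the labels. Nfkbiz, which encodes the nuclear NF-kB regulator IkBz, was not among the genes analysed here, and its loss could not be read from the table.

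S100 proteins are small calcium sensors that carry a pair of EF-hand motifs and mostly work as dimers. S100A8 and S100A9 pair with each other as calprotectin, which is released by neutrophils and by stressed epithelium, withholds zinc and manganese from microbes and acts as an alarm signal on neighbouring cells. In normal epidermis both transcripts are scarce, and they are known to be induced in wounded, inflamed and neoplastic skin. Most S100a genes lie side by side at one end of the epidermal differentiation complex on mouse chromosome 3, the gene cluster that also holds the cornified envelope families Sprr and Lce.

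The 250 bases before the annotated start of S100a8, S100a9 and S100a6 are printed here because the first pair fell in the knockout while S100a6, their nearest measured neighbour, rose. They are RefSeq sequences of build GRCm38.p6, at chr3:90668821-90669070 on the plus strand for S100a8, chr3:90695722-90695971 on the minus strand for S100a9 and chr3:90612644-90612893 on the plus strand for S100a6. Capitals mark matches on either strand to 4 short motifs, which were chosen with the sequences in view: TATAAA (the core promoter box), TGANTCA (the AP-1 type), TTGCNNAA (one form of the C/EBP type) and GGGNNTTTC (a part of the NF-kB type).
S100a8: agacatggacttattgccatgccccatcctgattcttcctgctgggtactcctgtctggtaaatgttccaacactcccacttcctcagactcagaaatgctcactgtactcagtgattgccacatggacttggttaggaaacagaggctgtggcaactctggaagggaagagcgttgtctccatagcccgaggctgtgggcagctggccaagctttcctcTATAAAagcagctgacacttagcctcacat
S100a9: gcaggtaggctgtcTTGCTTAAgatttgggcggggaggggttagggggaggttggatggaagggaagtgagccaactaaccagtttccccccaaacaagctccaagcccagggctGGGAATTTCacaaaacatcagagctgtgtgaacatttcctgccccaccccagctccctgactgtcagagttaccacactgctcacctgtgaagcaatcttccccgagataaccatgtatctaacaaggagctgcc
S100a6: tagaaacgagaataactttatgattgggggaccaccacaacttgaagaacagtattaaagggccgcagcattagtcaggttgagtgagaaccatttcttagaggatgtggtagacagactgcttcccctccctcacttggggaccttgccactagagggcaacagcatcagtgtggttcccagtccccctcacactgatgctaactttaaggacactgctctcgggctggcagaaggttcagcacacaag
The S100a8 window held 1 TATAAA, with 24 bases between it and the start. The S100a9 window held 1 GGGNNTTTC, with 126 bases between it and the start, and 1 TTGCNNAA at 228 bases, with no overlap between them. The S100a6 window held none of the 4. Among 32851 promoter windows of 250 bases in the same table, 12.4% held TATAAA, 6.75% held TGANTCA, 9.56% held TTGCNNAA and 3.72% held GGGNNTTTC. These matches describe letters only, and no binding was measured. Of the 10 S100a genes, 8 had a promoter entry, with 11 windows between them, and of these windows TATAAA was also found in 1 of the S100a3 windows and in those of S100a4 and S100a7l2. The S100a7l2 window held 1 TGANTCA as well, and the GGGNNTTTC and TTGCNNAA letters were each found in the S100a9 window alone.

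Gene expression was measured on one-colour arrays with biotin-labelled RNA, and the values are log2 signals per probe set. Array medians lay between 4.49 and 4.57, lower quartiles between 3.33 and 3.39 and upper quartiles between 6.89 and 6.99, and the highest value on any array was 13.86. Arrays of the same genotype correlated at 0.9973 to 0.9979 over probe sets. Of 20 listed keratinocyte markers, 11 were measured and 10 of them, Krt5, Perp and Cdh1 among them, lay above the median of every array in both genotypes, with list means of 10.24 to 10.36 in knockout arrays and 10.35 to 10.39 in wild-type arrays. In limma with Benjamini-Hochberg adjustment over the 9294 genes, 827 genes (8.9%) passed an adjusted p of 0.05. Of these, 415 (4.47%) were higher and 412 (4.43%) lower in the knockout, and with each array centred on its median 482 were higher and 314 lower. The words rose, fell and called are kept for genes past that threshold. The groups did not overlap for 15.9% of all genes. Of the 11 measured keratinocyte markers, 2 were called, both lower: Col17a1 with a log2 fold change of -0.31 and Grhl3 with -0.45. Of 9 listed melanocyte markers, 3 were measured, Dct, Mlana and Pmel, and all lay above the median of every array. Their list means were 9.28 to 9.57 in knockout arrays and 9.63 to 9.72 in wild-type arrays. Only Pmel was called, with a log2 fold change of -0.28. The part of melanocyte transcripts in the S100a values was not tested.

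Both calprotectin genes fell in the knockout keratinocytes while 3 other S100a genes, S100a3, S100a13 and S100a6, rose and 5 did not pass the test. Thus 5 of the 10 members were called, where 8.9% of all genes were. The median log2 fold change was 0.05 over the 10 members and -0.01 over all genes. Signals came from bulk cultures, in which fewer cells of a type and less RNA per cell cannot be told apart.

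S100a8 encodes the subunit also known as MRP8. Its log2 signals in knockout arrays 1 to 4 were 10.80, 10.90, 10.94 and 10.86, against 11.88, 11.89, 11.92 and 11.95 in wild-type arrays 1 to 4. Every knockout array lay below every wild-type array, by at least 0.94 log2 units. The log2 fold change of S100a8 was -1.03 ± 0.05 (SE, n = 4 per group; limma adjusted p = 4.29e-07), so the knockout signal was 48.9% of the wild-type signal. The probe set of S100a8 is of the type that can bind several related transcripts. In size the change ranked 29 among all falls.

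S100a9, or MRP14, encodes the larger calprotectin subunit. Its log2 signals were 10.98, 11.24, 11.19 and 11.21 in knockout arrays, against 11.997, 12.07, 12.07 and 11.87 in wild-type arrays. The groups were again apart, with a gap of 0.635 log2 units, and the lowest value of the knockout group came from replicate 1 and that of the wild-type group from replicate 4. The log2 fold change of S100a9 was -0.85 ± 0.07 (SE, n = 4 per group; limma adjusted p = 2.00e-05), with a 95% interval of -1.005 to -0.69, which left 55.5% of the wild-type signal. S100a9 ranked 50 among all falls, and 0.538% of all genes were called lower by as much or more. Both genes stayed above the upper quartile of the arrays in both genotypes, so transcripts of both were still well measured without Nfkbiz.

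**Figure D1:**
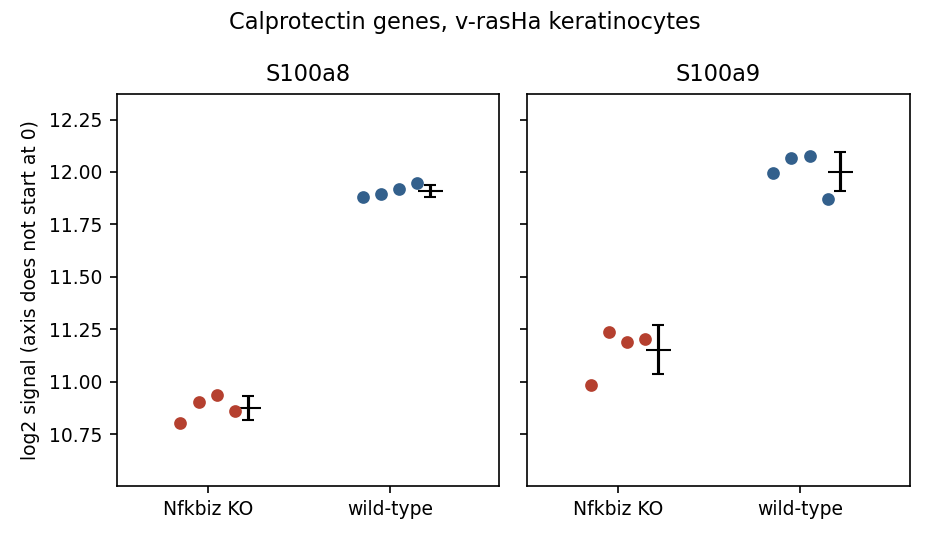
Log2 signals (vertical axis) of S100a8 and S100a9 in the 4 Nfkbiz KO arrays (red, left) and the 4 wild-type arrays (blue, right), all with v-rasHa; black bars are the mean ± SD. Knockout values reach at most 10.94 for S100a8 and 11.24 for S100a9, and wild-type values start at 11.88 and 11.87.

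The measured fall of S100a8 was slightly deeper than that of S100a9. The genes are read by different probe sets, and whether these respond alike to a change in RNA amount was not tested. Within each array, the log2 signal of S100a8 minus that of S100a9 was -0.18, -0.33, -0.25 and -0.34 in knockout arrays, against -0.12, -0.17, -0.16 and 0.08 in wild-type arrays. These values average -0.28 ± 0.08 in the knockout and -0.09 ± 0.11 in wild-type (SD, n = 4 each), and the highest knockout value and the lowest wild-type value nearly touch. The change of this difference was -0.18 (exact permutation test, two-sided, p = 0.0286, the smallest p that 70 splits allow). Without knockout replicate 2 or 4, or without any 1 of the wild-type replicates, the exact permutation p was 0.0571, with changes of -0.21 to -0.13.

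Calprotectin is abundant in neutrophils and monocytes, so markers of myeloid cells were read in the same arrays. Of 28 listed markers, 20 were measured, and their mean log2 signal was 4.26 to 4.34 in knockout arrays and 4.42 to 4.51 in wild-type arrays, below the array medians. Ltf, which encodes the iron-binding protein lactoferrin and is also made by epithelia, fell by 1.14 and Tyrobp, an adaptor of myeloid receptors, fell by 0.25, and the other 18 did not pass, so 2 of 20 were called where 8.9% of all genes were. On all arrays, 7 of the 20 lay above the array median, namely Camp, Cd14, Cd74, Ltf, Lyz2, Ngp and Spi1, and 2 lay below the lower quartile. Cd14, a receptor of monocytes, averaged 5.86 in knockout and 5.93 in wild-type arrays, and Spi1, a myeloid transcription factor gene, averaged 5.45 in knockout and 5.47 in wild-type arrays. Itgam, the integrin that defines neutrophils and monocytes, averaged 2.90 in knockout and 2.91 in wild-type arrays, below the lower quartile of every array. The neutrophil granule genes Elane and Mpo averaged 3.80 and 4.39 in knockout arrays and 3.82 and 4.49 in wild-type arrays. On each array, Tyrobp, Elane, Mpo, Fcgr3 and Adgre1 lay below the median of that array, a range where signal and background cannot be separated. Among the uncalled markers, Fcgr3, Adgre1 and Fcer1g had the most negative log2 fold changes, -0.29, -0.22 and -0.19 (limma adjusted p = 0.106, 0.0946 and 0.0777). Csf3r and Lyz2 alone had positive ones, 0.04 and 0.02, and the median of the list was -0.09. The part of myeloid transcripts in the values of S100a8 and S100a9 was not tested.

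Among the other S100a genes, S100a3, which encodes a cysteine-rich protein of the hair cuticle, had the largest change. Its log2 signals were 6.65, 6.67, 6.77 and 6.69 in knockout arrays, against 6.08, 6.18, 6.22 and 6.29 in wild-type arrays. All knockout arrays were higher than all wild-type arrays, and the log2 fold change of S100a3 was 0.50 ± 0.06 (SE; limma adjusted p = 0.000237), a 1.41-fold difference. In the annotation S100a3 overlaps S100a2, which was not analysed here.

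S100a13 encodes a copper-binding S100 protein that takes part in the export of FGF1 and interleukin-1 alpha, which lack a signal peptide. S100a13 had log2 signals of 7.38, 7.33, 7.25 and 7.24 in knockout arrays, against 7.03, 7.01, 6.94 and 7.004 in wild-type arrays. The groups did not overlap, and S100a13 rose by 0.30 ± 0.05 (SE; limma adjusted p = 0.00373). Il1a, the gene of interleukin-1 alpha itself, moved the other way in these arrays, with a log2 fold change of -0.90 ± 0.06 (SE; limma adjusted p = 2.12e-06). The annotated S100a13 overlaps S100a1, which was not analysed here.

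S100a6 encodes calcyclin, a protein of proliferating epithelial and stromal cells. S100a6 had log2 signals of 13.57, 13.60, 13.61 and 13.59 in knockout arrays, against 13.41, 13.34, 13.38 and 13.37 in wild-type arrays. All knockout arrays were above all wild-type arrays and the spread within a group was small, but the step was only 0.22 ± 0.05 (SE; limma adjusted p = 0.0137), a 1.16-fold difference. These signals lie close to the highest value on the arrays, and whether the probe set was near saturation was not tested.

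The remaining 5 genes did not pass the test. S100a14, a gene of simple and stratified epithelia, ranged from 11.81 to 11.87 in knockout arrays and from 11.60 to 11.78 in wild-type arrays, so its groups did not overlap. Its log2 fold change was 0.13, with a 95% interval of 0.02 to 0.25 (limma adjusted p = 0.17), and S100a14 passed under repeated quantile normalization (0.18, adjusted p = 0.0405) and with an intensity trend and a robust prior together (adjusted p = 0.00559). S100a10 encodes p11, the calcium-insensitive partner of annexin A2. S100a10 averaged 13.35 ± 0.01 in knockout and 13.32 ± 0.07 in wild-type arrays (SD, n = 4 each), with an interval of the difference of -0.07 to 0.15. A second probe set of S100a10 gave 13.03 ± 0.05 in knockout and 12.98 ± 0.04 in wild-type arrays, a difference of 0.05. Like those of S100a6, these signals lie close to the highest value on the arrays, and saturation was not tested.

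S100a4, also called metastasin or fibroblast-specific protein, averaged 10.01 ± 0.03 in knockout and 9.95 ± 0.04 in wild-type arrays (SD, n = 4 each). The 95% interval of its log2 fold change was -0.05 to 0.17 (limma adjusted p = 0.545). Fibroblast markers in the same arrays did differ: of 7 measured of 14 listed, 5 fell, among them the proteoglycan gene Dcn by 0.97, and Postn rose by 1.47 (4.43% of all genes were called lower and 4.47% higher), with list means of 5.31 to 5.49 in knockout arrays and 5.62 to 5.71 in wild-type arrays. Their part in the S100a values was not tested. S100a5, known from olfactory neurons, averaged 3.58 ± 0.17 in knockout and 3.73 ± 0.19 in wild-type arrays, and S100a7l2 averaged 2.31 ± 0.09 in knockout and 2.37 ± 0.13 in wild-type arrays (SD, n = 4 each). S100a7l2 lay below the lower quartile of every array and S100a5 below every array median, a range where signal and background cannot be separated, so these values say little about a difference.

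**Figure D2:**
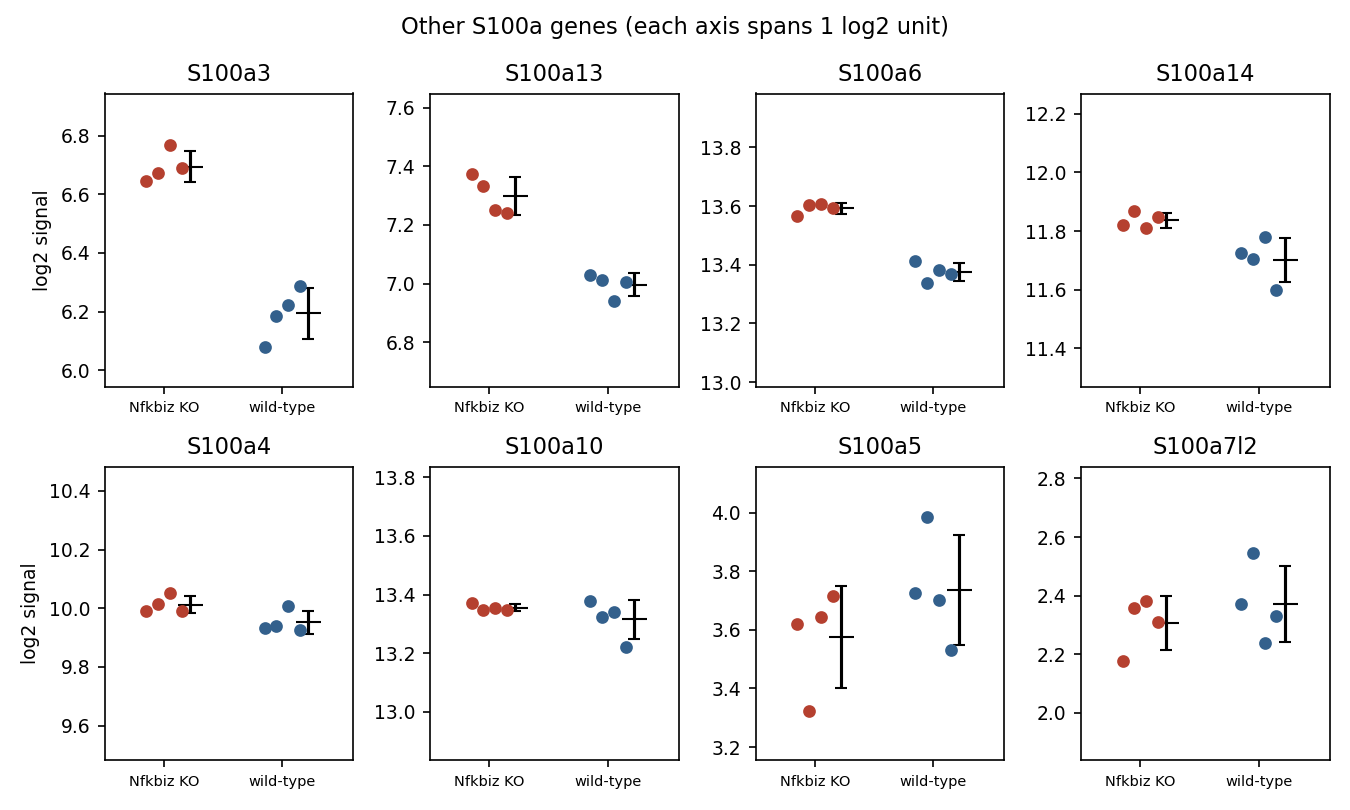
Log2 signals (vertical axes, each spanning 1 log2 unit) of the 8 other S100a genes in the 4 Nfkbiz KO arrays (red, left) and the 4 wild-type arrays (blue, right); black bars are the mean ± SD. S100a3, S100a13, S100a6 and S100a14 separate the genotypes with the knockout higher, and the other 4 overlap.

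In all, the groups did not overlap for 6 of the 10 S100a genes, where 15.9% of all genes were so separated. On the knockout-lower side stood S100a8 and S100a9, where 7.97% of all genes did not overlap in that direction, and on the knockout-higher side stood 4 genes, where 7.91% of all genes did. The changes that passed spanned -1.03 to 0.50 on the log2 scale.

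Receptors and binding partners of S100 proteins formed a list of 24 symbols, of which 8 were measured. Limma called 2 of them higher and none lower, with 6 short of the threshold (4.47% of all genes were called higher), with a median log2 fold change of -0.02. At an unadjusted p under 0.05, Bsg and Cd68 were lower and Arrb1 was higher besides the called genes. Mcam, an adhesion molecule that has been described as a receptor of the S100A8 and S100A9 dimer, had log2 signals of 8.86, 8.83, 8.85 and 8.73 in knockout arrays, against 8.41, 8.32, 8.34 and 8.25 in wild-type arrays. Its groups did not overlap, and Mcam rose by 0.49 ± 0.06 (SE; limma adjusted p = 0.000194), opposite in sign to both calprotectin genes. Anxa5, the gene of the phospholipid-binding protein annexin A5, averaged 12.01 ± 0.06 in knockout and 11.68 ± 0.03 in wild-type arrays (SD, n = 4 each) and rose by 0.33 ± 0.05 (SE; limma adjusted p = 0.00197).

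Bsg, which encodes basigin, a surface protein that binds S100A9, averaged 11.01 ± 0.06 in knockout and 11.14 ± 0.06 in wild-type arrays (limma adjusted p = 0.195). Cacybp, the gene of the calcyclin-binding protein that partners S100A6, averaged 10.496 ± 0.04 in knockout and 10.60 ± 0.11 in wild-type arrays (limma adjusted p = 0.376). Cd68, a lysosomal glycoprotein gene of macrophages, had a log2 fold change of -0.24 and Arrb1, the gene of beta-arrestin-1, had 0.20, with limma adjusted p of 0.131 and 0.212. Arrb1 lay below the median of every array, a range where signal and background cannot be separated. Cd33 and Cd69, receptors of leukocytes, had log2 fold changes of -0.03 and 0.00 at mean signals of 4.08 and 2.15 in knockout arrays and 4.11 and 2.15 in wild-type arrays, below the array medians. The receptor genes Ager and Tlr4 were not among the genes analysed here.

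**Figure D3:**
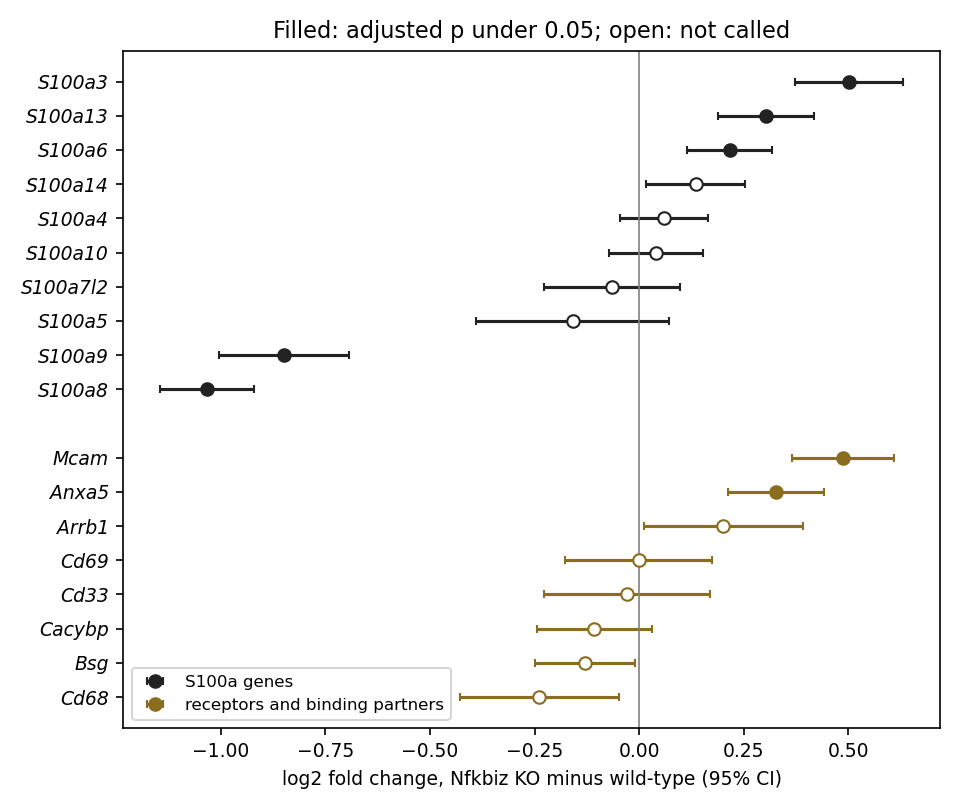
Log2 fold changes (horizontal axis, Nfkbiz KO minus wild-type) with 95% intervals for the 10 S100a genes (black) and 8 receptors and binding partners (ochre); filled points passed an adjusted p of 0.05. S100a8 and S100a9 are the only S100a genes left of -0.5, S100a3 reaches 0.50, and Mcam and Anxa5 lie on the right.

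The S100a genes were then read in their order on mouse chromosome 3, counting measured genes only. From S100a13 the order runs through S100a14, S100a3, S100a4, S100a5 and S100a6 to S100a8 and S100a9, then S100a7l2, and S100a10 stands at the far end of the complex. The 3 measured genes before the calprotectin pair, S100a4, S100a5 and S100a6, had log2 fold changes of 0.06, -0.16 and 0.22. The 3 after it, S100a7l2, Prr9 and Lelp1, had -0.06, 0.16 and -0.10, and none of these 3 was called. So the calprotectin genes stood between neighbours of which S100a6 was called, and in the opposite direction.

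In the epidermal differentiation complex outside S100a, 31 genes were measured, the neighbours Prr9 and Lelp1 among them. Limma called 14 of the 31 lower and none higher, with 17 short of the threshold (4.43% of all genes were called lower). The median log2 fold change of the 31 was -0.21. Among the Sprr genes, 6 of 9 fell and among the Lce genes, 7 of 13 fell, against 1 of the 9 others, which was Crct1, named after its value was seen. The largest falls were in the small proline-rich cornified envelope precursors Sprr2f, Sprr2d and Sprr2i, with log2 fold changes of -2.63, -2.41 and -1.26, and in the late cornified envelope gene Lce3a, with -1.21. Members of the Sprr2 and Lce families are close in sequence, and a probe set of one may also read another. In the order of measured genes, the falling genes of the complex lay in runs from Sprr2d to Sprr2k, from Lce1g to Lce1i and from Lce3a to Crct1. Genes that were not measured are left out of this order, so the runs need not be unbroken on the chromosome. Measured genes that did not pass lay between these runs.

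**Figure D4:**
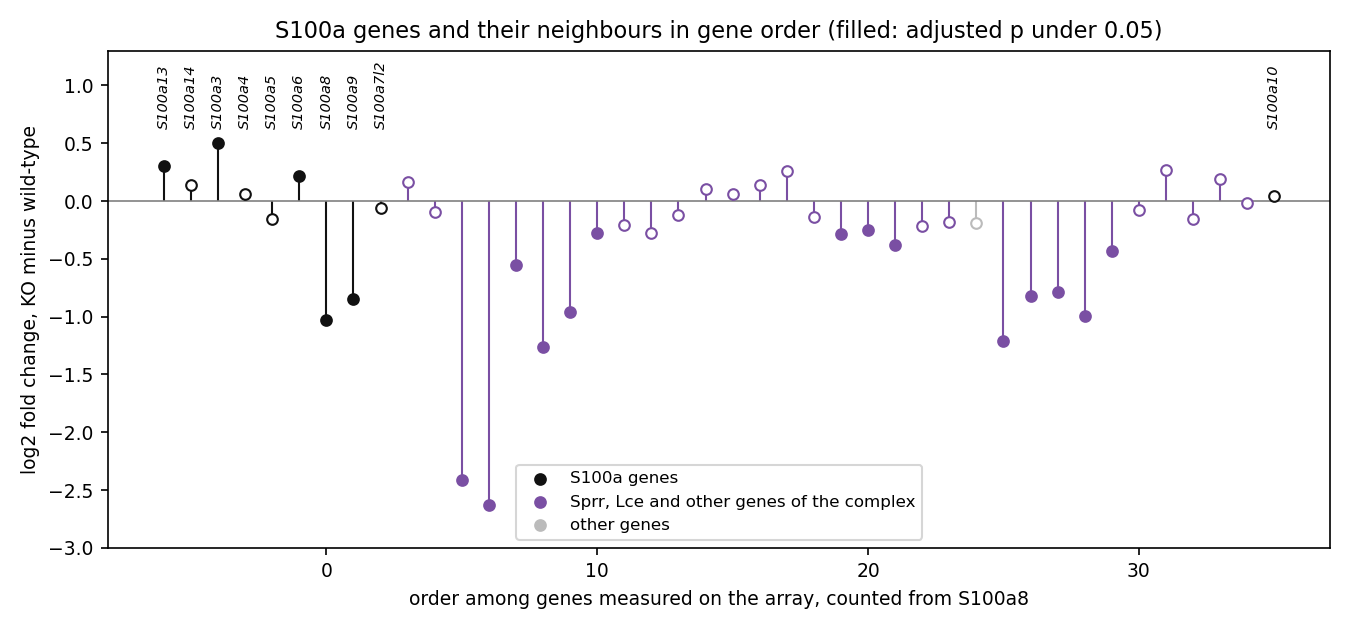
Log2 fold change (vertical axis, Nfkbiz KO minus wild-type) of measured genes in their order on chromosome 3, counted from S100a8 (horizontal axis); black, S100a genes; purple, Sprr, Lce and other genes of the complex; grey, another gene; filled points passed an adjusted p of 0.05. S100a8 and S100a9 drop to -1.03 and -0.85 beside S100a6 at 0.22, and the Sprr2 and Lce3 stretches drop further along.

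Known regulators and inducers of calprotectin formed a list of 32 symbols, of which 16 were measured: 4 rose (4.47% of all genes were called higher), 7 fell (4.43% of all genes were called lower) and 5 did not pass, and the median log2 fold change was -0.16. The epithelial cytokine genes Il1f6 (IL-36 alpha) and Il1a, both inducers of S100a8 and S100a9 in keratinocytes, had log2 fold changes of -3.11 and -0.90 and were called lower. The transcription factor gene Atf3 and the NF-kB subunit gene Relb rose by 0.66 and 0.64. The list thus held calls in both directions.

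Calprotectin binds zinc and manganese, and other genes of metal withholding and transport were read beside it. Of 29 listed symbols 13 were measured: 2 fell (4.43% of all genes were called lower), 1 rose (4.47% were called higher) and 10 did not pass, and the median log2 fold change was 0.00. Lcn2, whose product binds bacterial siderophores, averaged 3.18 ± 0.24 in knockout and 6.74 ± 0.22 in wild-type arrays (SD, n = 4 each; limma adjusted p = 5.32e-08). The knockout mean of Lcn2 lay under the lower quartile of every array, where signal and background cannot be separated, so no fold is given for it. Ltf, lactoferrin, had -1.14 ± 0.12 (SE; limma adjusted p = 0.000133). Mt2, the zinc-binding metallothionein 2 gene, rose by 0.26 ± 0.05 (SE; limma adjusted p = 0.0132), while the measured zinc transporters Slc30a4, Slc30a5, Slc30a9, Slc39a1 and Slc39a4 did not pass.

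Finally, the genes with the profile most like that of each calprotectin gene were listed by the root mean square difference of log2 signals over the 8 arrays, each gene centred on its own mean. The 5 closest to S100a8 were Twist2, Crabp1, Slpi, Nrg1 and Nppb, with differences of 0.059 to 0.087 log2 units. The 5 closest to S100a9 were Defb6, Slpi, Dpt, Tmprss4 and Sprr2j-ps, with differences of 0.065 to 0.095. Slpi, the secretory leukocyte protease inhibitor gene, was in both lists, and it averaged 9.87 ± 0.08 in knockout and 10.81 ± 0.07 in wild-type arrays (SD, n = 4 each). Twist2 and Dpt are also fibroblast markers of the list above. S100a9 itself stood at rank 17 for S100a8, and S100a8 at rank 19 for S100a9, with a difference of 0.1252 log2 units. This measure is dominated by the step between the genotypes and describes 8 arrays only.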

How the data were processed

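Total RNA of 4 Nfkbiz KO and 4 wildtype keratinocyte cultures, extracted with Trizol and a Qiagen column per the labels' protocols, was measured on biotin-labelled arrays. The authors deposited log2 values of 11373 probe sets on each array. Their range of 1.57 to 13.86 was the ground for the log2 scale. How probe sets were summarised and normalized is not given in the sources used here, nor is a genome build. The platform annotation gave 1 symbol for 9374 probe sets, several for 479 and none for 1520. Each gene was represented by its probe set of highest mean. Differences, knockout minus wild-type, were tested in R 4.3.3 with limma 3.58.1 (lmFit, then eBayes) on all 9294 genes without covariates, with Benjamini-Hochberg adjustment at 0.05 and moderated standard errors. The code was tested on simulated data. The number of arrays limits the precision. Each limma p-value sets the genotype difference against the spread between arrays of a genotype, moderated over all genes. Gene order was taken from RefSeq, GRCm38.p6, for names and order only.

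The members and lists were chosen with earlier results of these data known. Named were all S100a genes and measured partners, the 3 nearest measured genes on each side of the pair, up to 4 called genes with the largest change per other list, and the 5 closest profiles per gene; genes of the marker lists, and others so stated, were named after their values were seen. Alternatives were quantile normalization, median centring, leaving out the lowest 25% of genes, other probe set summaries, an intensity trend with a robust prior, the replicate number as a block, and leaving out each array. Same-numbered knockout and wild-type arrays did not deviate together, with correlations of -0.049 to 0.085 between their deviations from the group means, so the numbers were not taken to pair the samples.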

Additional observations from a re-analysis of the deposited data

Results flagged for a closer look

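Among 38 groups of 4 values of S100a genes and their partners, 2 held a sample far from the others, and chance alone flags about 1 in 20 such groups. S100a4 in wild-type arrays had a highest log2 signal of 10.01, with the nearest of the others at 9.94. Cd69 in knockout arrays had a highest log2 signal of 2.39, with the nearest at 2.08, both below the lower quartiles of the arrays. Neither gene was called with all arrays.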

How the results depend on the processing

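S100a8, S100a9, S100a3 and S100a13 kept their direction and their call in all 15 alternatives, with log2 fold changes of -1.05 to -1.01, -0.89 to -0.79, 0.46 to 0.53 and 0.27 to 0.33. S100a6 kept its direction (0.20 to 0.24), and its call was lost with the replicate block (0.22, adjusted p = 0.0542). S100a14 was called under repeated quantile normalization (0.18, adjusted p = 0.0405) and with an intensity trend and robust prior (0.13, adjusted p = 0.00559). Leaving out 1 array kept 5 S100a genes called. Receptors and partners had 4 called genes with the intensity trend and robust prior, 2 higher and 2 lower, where Bsg and Cd68 were called too, and the other EF-hand list had 6. For the difference in change between S100a8 and S100a9, leaving out 1 array gave -0.22 to -0.13 and the replicate block -0.18 (exact sign-flip p = 0.125, the smallest p that 4 pairs allow). Over all genes, 598 to 687 were called with 1 array left out, 659 with the replicate block and 1134 with the intensity trend and robust prior together. The causes were not tested. Without detection calls, low signals such as S100a5 and S100a7l2 cannot be separated from background.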

Other observations

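Other calcium-binding genes with EF hands, outside the S100a family, were measured for 19 of 38 listed symbols: limma called 1 higher and 2 lower and left 16 uncalled, where 8.9% of all genes were called, and their median log2 fold change was -0.02. Efhd1, a mitochondrial EF-hand protein gene, averaged 6.64 ± 0.09 in knockout and 5.47 ± 0.14 in wild-type arrays (SD, n = 4 each), a 2.26-fold rise (limma adjusted p = 2.76e-06). Nucb2, the gene of nucleobindin 2, fell by 0.63 ± 0.07 (SE; limma adjusted p = 0.000186) and Rcn3, a reticulocalbin gene of the secretory pathway, by 0.54 ± 0.07 (SE; limma adjusted p = 0.00038). S100g, the gene of calbindin D9k and a relative outside the S100a names, averaged 3.06 ± 0.10 in knockout and 2.95 ± 0.06 in wild-type arrays, below the lower quartiles, and was not called. The fused-type S100 genes Flg, Hrnr, Tchh and Tchhl1, which join an S100 domain to a long repeat, had log2 fold changes of 0.27, -0.16, 0.19 and -0.02, and none of them was called. S100g and the fused-type genes were named after their values were seen.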
